A study of Drosophila melanogaster with 4 samples.

Results

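A set of 71 genes stood higher in each of 3 Drosophila wing disc libraries that carried a Yorkie transgene than in the library that carried GFP alone. Yorkie (Yki) is the transcriptional coactivator that the Hippo pathway restrains. A gene entered the set when its log2(FPKM + 1) exceeded that of the GFP library by 0.8 or more in all 3. FPKM is a measure of fragments scaled to transcript length and library size, and the added 1 is a pseudocount that understates the differences of low genes. The genes came from 7752 that averaged 1 FPKM or more over the 4 libraries, out of 13990 in the table. Cuticle Cpr and Twdl, Osiris, heat shock Hsp, Gr64 and small-RNA genes had been left out by name, and so was yki itself.

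The libraries were made from wing imaginal discs of wandering third-instar larvae raised at 25 °C and picked for GFP. All 4 genotypes carry enGFP, written en>GFP in the protocol, GFP under the engrailed driver. The first has enGFP only (GFP), the second adds Yki, the third adds Yki and Taiman (Yki+Tai), and the last adds Yki and Tai-IR (Yki+Tai-IR). Tai is a coactivator of the ecdysone receptor, and IR is the usual fly label of an inverted-repeat construct that silences a gene. The engrailed driver is active in the posterior compartment, so each library mixes posterior cells with anterior cells that do not express the transgenes. Discs were pooled within a genotype, 80 to 100 in all, and there is 1 library of each, so no difference has a replicate check or a p-value. In whole discs, more cells of a type and more RNA per cell cannot be told apart.

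In the Hippo pathway a kinase cascade keeps Yki out of the nucleus. When the cascade is quiet, Yki enters the nucleus and binds DNA through the TEAD-family factor Scalloped. Its known targets drive growth and block cell death, and some of them, such as kibra and expanded (ex), are upstream Hippo components that feed back on the pathway. The submitters describe an interaction of Tai with Yki, so the 3 Yki libraries pose the question of how a Yki-associated gene behaves when Tai is added or targeted.

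Values chosen by the rule are a description only. The rule compared every gene with the same GFP library, so that a low value there enters all 3 differences. Singly, 3.12% of the 7752 genes passed the limit of 0.8 with Yki, 5.3% with Yki+Tai and 4.57% with Yki+Tai-IR. With yki counted, 0.929% passed in all 3, and 0.722% passed the same limit in the other direction. The lowest of the 3 differences had a median of 1.22 over the 71 genes, was 1 or more in 44 of them and 2 or more in 8. Just inside the limit lay CG8795, sage and BBS8, with lowest differences of 0.81, 0.81 and 0.80. Just outside lay CG6023 and CG15484, both at 0.79, and the lamin gene LamC, also at 0.79, which stood at 30.8, 79.6, 53.9 and 97.1 FPKM in GFP, Yki, Yki+Tai and Yki+Tai-IR.

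The members were mostly genes of low level in the control discs. Their median was 1.77 FPKM in GFP, against 26.5 FPKM over all 7752 genes. In GFP 27 of the 71 stood under 1 FPKM, 33 between 1 and 10, and 11 at 10 or more. Of the 70 members whose transcript length is known, 13 rested on fewer than 3 estimated fragments in GFP. Genes listed at 0 in GFP are given with no fold.

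**Figure D1:**
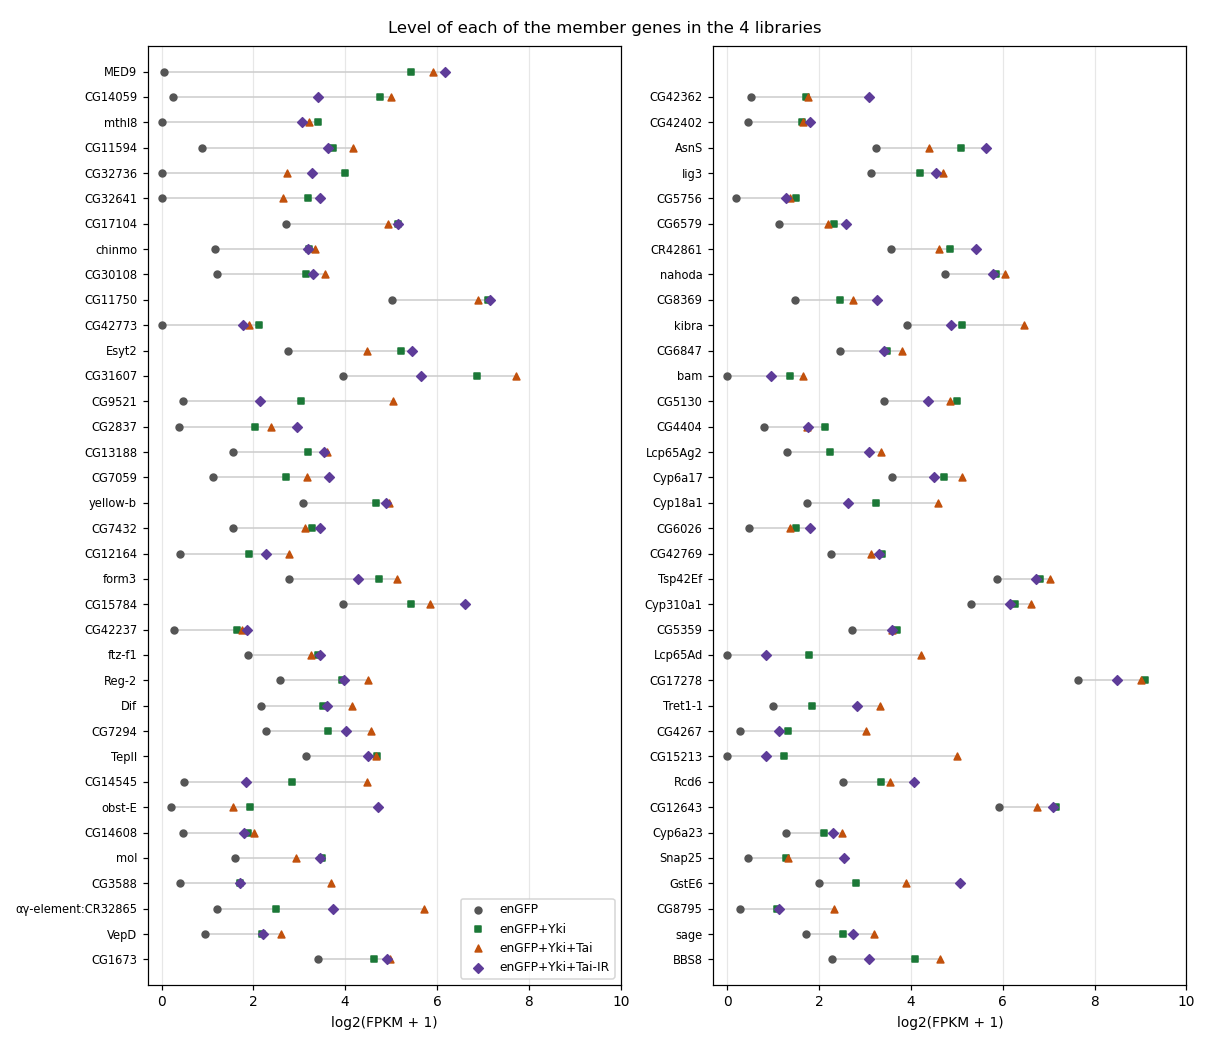
Level of each of the 71 genes as log2(FPKM + 1) on the horizontal axis, ordered from the largest to the smallest of the lowest differences from GFP, with 1 symbol per library. The GFP symbol lies left of the other 3 in every row, which the choice of genes fixes, while the spacing of the 3 Yki symbols runs from nearly identical (CG17104, chinmo) to far apart (obst-E, CG15213).

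Among regulators of growth, kibra, a scaffold that activates the Hippo kinases upstream of Yki, had FPKM values of 14.1 (GFP), 33.8 (Yki), 87.4 (Yki+Tai) and 28.5 (Yki+Tai-IR) (FBgn0262127, chromosome 3R, 14697689 to 14724261 in dm6). CG14059, now named Ilp8, encodes a relaxin-like peptide that delays metamorphosis when discs grow abnormally, and had values of 0.188, 26, 30.9 and 9.66 FPKM in that order, which all later sets of 4 follow (chromosome 3L, 17029812 to 17032080). Its GFP value corresponds to about 1 fragment. The member with the highest mean level was CG17278, now named peg, which encodes a secreted protein that helps the Wingless morphogen to spread. It stood at 198, 547, 515 and 359 FPKM. These 3 genes differ in which Yki library was highest. Yki+Tai was highest for kibra and Ilp8, though for Ilp8 by little over Yki, and Yki for peg. A pair of receptor genes also belonged here. CG8795, now PK2-R2, encodes a pyrokinin receptor and stood at 0.205, 1.12, 3.98 and 1.19 FPKM. The methuselah-like receptor gene mthl8, at 0 in the GFP library, reached 9.59, 8.29 and 7.34 FPKM with Yki, Yki+Tai and Yki+Tai-IR.

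Genes of transcription and chromatin included some with nearly equal values in the Yki libraries. The gene chinmo encodes a BTB zinc-finger factor that marks early, juvenile identity, and stood at 1.25 FPKM in GFP and at 8.21, 9.21 and 8.18 in the Yki libraries. The nuclear receptor gene ftz-f1, which makes tissues competent to respond to ecdysone, stood at 2.69, 9.62, 8.53 and 9.86 FPKM. For both, the 3 Yki libraries lay within 0.5 of each other on the log2(FPKM + 1) scale. Dif, a NF-κB factor of the Toll pathway, stood at 3.49, 10.4, 16.7 and 11.2 FPKM. The basic helix-loop-helix gene sage, known from the salivary gland, stood at 2.29, 4.76, 8.17 and 5.65 FPKM. CG11750, now named Pa1 after a partner of the chromatin protein PTIP, stood at 31.5, 137, 118 and 142 FPKM. None of the 8 genes assigned to transcription and chromatin, a group formed with values seen, differed 2-fold between Yki libraries, and only 10.4% of all genes did.

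Of the germline, DNA and cilia genes, bam, the differentiation switch of germline stem cell daughters, went from a listed 0 in the control to 1.57, 2.13 and 0.936 FPKM in the 3 Yki libraries. These values rest on about 26, 47 and 14 fragments. An annotated neighbour on the other strand, CG11854, shares 224 exon bases with bam and was listed at 0 in Yki and Yki+Tai and at 9.14 FPKM in Yki+Tai-IR. The library kit does not mark strand. The DNA ligase gene lig3 stood at 7.76, 17.4, 25.2 and 22.3 FPKM. BBS8, a subunit of the cilium transport complex BBSome, stood at 3.86, 15.9, 23.9 and 7.48 FPKM, and Yki+Tai-IR brought it nearest of all members to the limit. Rcd6, a gene found through its need at centrosomes, stood at 4.77, 9.27, 10.6 and 15.8 FPKM, with its highest value in Yki+Tai-IR instead.

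The 13 genes of metabolism and detoxification include several enzymes of steroid, sugar and amino acid handling. Cyp18a1, the hydroxylase that inactivates ecdysteroids, stood at 2.34, 8.43, 23.2 and 5.22 FPKM. The trehalose transporter gene Tret1-1 stood at 1.01, 2.62, 9.07 and 6.06 FPKM. The asparagine synthetase gene AsnS went another way among the Yki libraries, at 8.47, 33.3, 19.9 and 48.7 FPKM. So did the glutathione S-transferase gene GstE6, at 2.99, 6.02, 14 and 32.6 FPKM. For these last 2 genes Yki+Tai-IR was the highest library. The cytochrome P450 genes Cyp6a17 and Cyp6a23 lie 89 bases apart on chromosome 2R. Cyp6a17 stood at 11, 25.2, 33.8 and 21.6 FPKM, and Cyp6a23 at 1.44, 3.3, 4.68 and 3.94 FPKM. Paralogs so alike can share reads, so the split between the pair is uncertain. The branched-chain aminotransferase gene CG1673 (Bcat) stood at 9.66, 23.9, 30.4 and 29 FPKM. CG11594, a carbohydrate kinase gene, stood at 0.853, 12.3, 17 and 11.3 FPKM. The cytochrome gene Cyp310a1 stood higher, at 38.6, 75.9, 97.6 and 70.6 FPKM. The zinc transporter gene CG5130 (ZnT77C) had 9.75, 30.9, 28.1 and 19.8 FPKM, Reg-2, first found as a gene with daily rhythm, 4.97, 14.3, 21.6 and 14.6, and CG7059, a phosphoglycerate mutase family gene, 1.17, 5.57, 7.98 and 11.4. Among these, only CG7059 was highest with Tai-IR.

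Cuticle and apical matrix genes gave some of the widest spreads. The chitin-binding gene obst-E stood at 0.158, 2.8, 1.93 and 25.1 FPKM, so that Yki+Tai-IR stood apart from all the others. The larval cuticle gene Lcp65Ad, with a listed 0 in GFP, had 2.45, 17.7 and 0.805 FPKM in the others, highest in Yki+Tai and resting on about 2 fragments in Yki+Tai-IR. Its cluster neighbour Lcp65Ag2 stood at 1.46, 3.7, 9.2 and 7.45 FPKM. Both belong to a family of similar copies, and their values are uncertain for that reason. The formin gene form3 was also placed in this group, though a formin is not a matrix protein. It stood at 5.84, 25.6, 33.8 and 18.3 FPKM, and yellow-b, of the yellow family of secreted proteins, at 7.5, 24.4, 30.1 and 28.8. CG13188, now named expansion, was placed here as well. It takes part in shaping tracheal tubes and stood at 1.94, 8.1, 11.1 and 10.7 FPKM. CG14608, now thw, held 0.389, 2.71, 3.05 and 2.48 FPKM, and CG2837, now snsl, 0.309, 3.12, 4.25 and 6.73. Of these last 2 genes, snsl was highest in Yki+Tai-IR.

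Of the membrane and redox genes, mol, which encodes the maturation factor of the hydrogen peroxide-producing dual oxidase, stood at 2.04, 10.3, 6.59 and 9.88 FPKM. The extended synaptotagmin gene Esyt2, a lipid-transfer protein of membrane contact sites, stood at 5.71, 36.2, 21.3 and 42.8 FPKM. In both, Yki+Tai was the lowest Yki library. The vesicle fusion gene Snap25 stood at 0.375, 1.42, 1.49 and 4.85 FPKM, and the tetraspanin gene Tsp42Ef at 57.8, 112, 129 and 105. Secreted and immune members were steadier. The thioester protein gene TepII stood at 7.9, 25, 24.3 and 21.7 FPKM, and the serine protease gene CG7432 at 1.93, 8.73, 7.73 and 9.89. CG6579, now atilla, a marker of the blood cells called lamellocytes, stood at 1.19, 4.01, 3.58 and 4.99 FPKM. Summed markers of blood cells, 12 genes, ran 63.5, 65.9, 100.0 and 59.9 FPKM, and 5 of the 8 that averaged 1 FPKM were 2-fold above Yki with added Tai. The sum hides opposite directions. The marker crq stood at 20.7, 41.1, 32.5 and 32.1 FPKM, while every other gene of the list lay lower in Yki than in GFP. The part of blood cells in the members' values was not tested. The remaining 23 members were given no role. The highest of them, CG12643 on the X chromosome, stood at 59.2, 143, 106 and 135 FPKM, and CG31607, matched through a synonym to CG43394, at 14.4, 117, 210 and 49.5. CG32641, with a listed 0 in GFP, had 8.18, 5.21 and 9.92 FPKM, resting on about 20, 17 and 21 fragments. CG30108 had 1.32, 7.87, 10.8 and 8.82 FPKM, with about 4 fragments in GFP. Both are short genes of few fragments, and their counting intervals for Yki+Tai over Yki, 0.32 to 1.31 and 0.818 to 2.28, hold 1. Better measured were CG6847, at 4.48, 10.2, 13 and 9.63 FPKM, CG5359, at 5.61, 11.9, 10.9 and 11, and the noncoding RNA gene CR42861, at 10.8, 28.1, 23.6 and 41.8. The first 2 lay close together over the Yki libraries, and CR42861 was highest with Tai-IR.

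A noncoding member, alphagamma-element:CR32865, is named for a repeated element of a heat shock locus and stood at 1.29, 4.63, 51.2 and 12.3 FPKM. The rule had left out heat shock genes by the start of their names, which this name escapes. Beside it, Hsp68 stood at 22, 7.17, 178 and 335 FPKM, and Hsp70Bbb at 51.2, 264, 277 and 205. Hsp70Bbb was thus above GFP in all 3 Yki libraries and Hsp68 below it in Yki. The copies Hsp70Aa, Hsp70Ba and Hsp70Bc, all at low level, also lay below GFP in Yki and above it in Yki+Tai and Yki+Tai-IR. Of these Hsp70Aa stood at 2.05, 0.776, 3.98 and 9.84 FPKM. Hsp70Ab was listed at 0 in GFP and Yki. Their part in the value of the element was not tested. Its symbol was not matched, so its fragments were not estimated, but the annotation lists it with the prefix lncRNA (chromosome 3R, 12475336 to 12478267). As a repeated element it can share reads with its copies, and its values are uncertain for that reason.

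For 2 of the genes with the largest differences, the signal of an overlapping gene moved in the opposite direction. All exon bases of MED9, a Mediator subunit, lie within exons of CG42518 on the same strand (chromosome 2R, 18167255 to 18168380). MED9 stood at 0.0338, 41.9, 58.8 and 71 FPKM, the largest lowest difference of the set, while CG42518 stood at 60.2, 36.7, 14.9 and 7.69. Their sums were 60.3, 78.7, 73.7 and 78.7 FPKM. CG32736, now sloth1, encodes a mitochondrial microprotein and shares its transcript with its paralog CG42308, sloth2. It stood at 0.00187, 14.9, 5.65 and 8.72 FPKM and CG42308 at 26.7, 4.93, 12.5 and 10, with sums of 26.7, 19.8, 18.2 and 18.7. The sum of the sloth pair was highest in GFP, where the member itself was lowest. In neither pair did the sum pass the limit of 0.8 over GFP in any Yki library. The differences of the sum ran from 0.29 to 0.38 for the MED9 pair and from -0.53 to -0.41 for the sloth pair. How fragments were assigned within a pair cannot be checked from FPKM, so the values of MED9 and CG32736, and their place among the 71 genes, may reflect that assignment. CG42769 and CG42773 are alternative-exon genes of the trans-spliced mod(mdg4) locus, listed as separate genes 3.48 kb apart, and CG42773 went from a listed 0 in GFP to 3.34, 2.77 and 2.4 FPKM. Over the 8 such alternative-exon genes in the table the summed values were 76.2, 104, 114 and 97.6 FPKM. With mod(mdg4) itself added, the sums were 686, 644, 739 and 665 FPKM, so that only Yki+Tai lay above GFP. In all, 15 of the 70 matched members share 100 or more exon bases with another annotated gene, and in 5 the shared bases are the larger part of the gene.

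**Figure D2:**
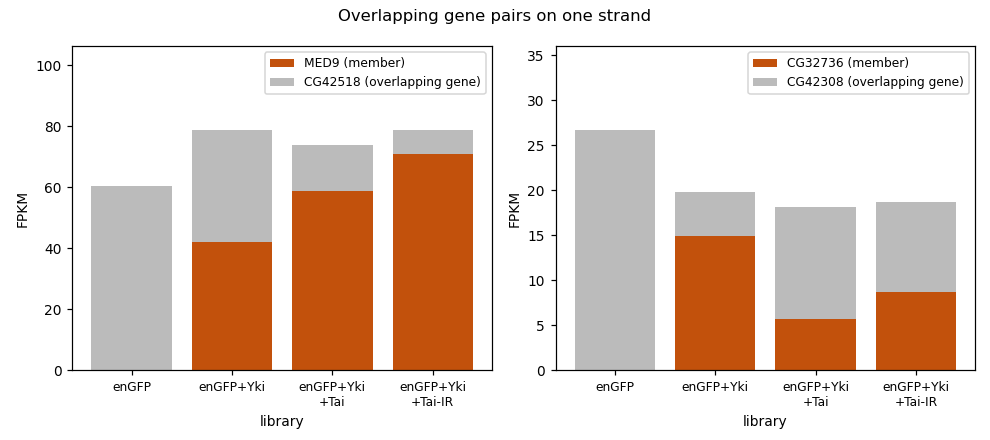
FPKM of MED9 with CG42518 (left) and of CG32736 with CG42308 (right), stacked by library. The member's part of each bar is near 0 in GFP and from 5.65 to 71 FPKM in the Yki libraries, while the full bar of the MED9 pair runs from 60.3 to 78.7 FPKM and that of the sloth pair from 26.7 down to 18.2.

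Differences between the Yki libraries did not enter the rule directly. Each Yki library had to pass the limit over GFP, however. A member can thus be 2-fold lower in a library only if the other library lies further above GFP. In each comparison below, the shares of members and of all genes are therefore not like for like. Yki+Tai against Yki asks what added Tai does to these genes. Of the 71 members 13 (18.3%) had at least a 2-fold higher value with added Tai, against 3.15% of all 7752 genes, and 1 was 2-fold lower, against 2.09%. The limit here is a difference of 1 on the log2(FPKM + 1) scale. The median difference was 0.29 over the members and -0.003 over all genes, and 48 members were above 0. The members are lower in level than most genes, and low genes passed 2-fold more often. Among genes averaging 1 to 5 FPKM, 4 of 19 members (21.1%) were 2-fold higher, against 12.7% of all genes of that level. From 5 to 20 FPKM it was 8 of 33 members (24.2%) against 3.33%, and at 20 FPKM or more 1 of 19 (5.26%) against 1.09%. These levels, here and in the later comparisons, are means over all 4 libraries. A high value in 1 library thus also raises the level of its gene. CG15213, at 1.37 FPKM in Yki and 31.3 in Yki+Tai, averaged 8.37, and Lcp65Ad, at 2.45 and 17.7, averaged 5.23. The level groups are therefore not independent of the ratio that is counted. Neither is the filter on the mean. Of the 13 genes, CG15213, CG4267 and CG8795 reached 1 FPKM only through Yki+Tai, as their other libraries averaged less. Without that filter the same 71 genes met the rule.

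The widest of these ratios belonged to genes of low level in Yki. CG15213 stood at 1.37 FPKM in Yki and 31.3 in Yki+Tai, a ratio of 22.9 with an exact 95% counting interval of 6.18 to 197, and was listed at 0 in GFP. It rested on about 2 fragments in Yki and 1 in Yki+Tai-IR. CG9521, an oxidoreductase gene with 0.373, 7.17, 31.8 and 3.4 FPKM, had a ratio of 4.43 (3.71 to 5.35). CG3588 had 0.311, 2.26, 11.9 and 2.26 FPKM and a ratio of 5.28 (3.96 to 7.24), with Yki and Yki+Tai-IR alike. For kibra the ratio was 2.58 (2.45 to 2.73), and for Cyp18a1 it was 2.75 (2.35 to 3.25). In the other direction, CG32736, the 1 gene counted as 2-fold lower, had a ratio of 0.38 (0.234 to 0.591). Its interval takes the fragments as assigned, and the sum with its overlapping partner CG42308 had a ratio of 0.917. Esyt2 had one of 0.588 (0.534 to 0.648), AsnS one of 0.598 (0.524 to 0.682) and mol one of 0.643 (0.522 to 0.786).

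The posterior genes en, inv and hh moved too with added Tai, at ratios over Yki of 1.94, 2.2 and 1.33, while the anterior gene ci stood at 81.3 FPKM in Yki and 29.8 in Yki+Tai. Of the 71 members 13 had a ratio above that of inv, 19 lay between hh and inv, and 39 lay below hh. The 13 were kibra, Cyp18a1, Tret1-1, GstE6, Lcp65Ad, Lcp65Ag2, the heat shock element, CG8795 and 5 further CG genes. The counting intervals of GstE6, at 2.32 (1.55 to 3.64), and Lcp65Ag2, at 2.48 (1.24 to 5.09), hold the ratio of inv. The element has no interval. The part of the posterior genes' shift in the ratios of the members was not tested. Transcript of yki was at 5034 FPKM in Yki and 4535 in Yki+Tai, and tai at 25 and 1260.3.

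Yki+Tai-IR against Yki asks how the members stand when tai is targeted. Here 6 members (8.45%) were 2-fold higher in Yki+Tai-IR, against 3.07% of all genes, and 3 (4.23%) were lower, against 0.916%. The medians were 0.03 over the members and 0.007 over all genes, with 37 members above 0 and 34 below. Split by level, each count of members rests on few genes, so no change with level can be read from them. Among genes averaging 1 to 5 FPKM, 2 of 19 members (10.5%) were higher, against 14.97% of all genes of that level, and 0 lower, against 3.53%. From 5 to 20 FPKM 3 of 33 members were higher and 2 lower, which is 9.09% and 6.06%, against 2.72% and 0.892%. At 20 FPKM or more 1 of 19 was higher and 1 lower, each 5.26%, against 0.773% and 0.386%. Markers of other tissues moved in this comparison too. Of the muscle markers averaging 1 FPKM or more 6 of 9 were 2-fold higher in Yki+Tai-IR, and of the leg disc markers 8 of 10. The posterior genes en, inv and hh had ratios of 0.732, 0.963 and 0.915, and 41 members had a ratio above that of inv, 15 one below that of en. The part of these shifts in the members' values was not tested.

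The 3 lower genes were CG14059 (Ilp8), CG31607 and CG14545. The ratio of Ilp8 was 0.371 (0.267 to 0.509), and that of CG31607 was 0.425 (0.396 to 0.455). CG14545 had 0.407, 6.18, 21.1 and 2.57 FPKM, and its ratio was 0.415 (0.202 to 0.802). All 3 had their highest value in Yki+Tai. BBS8, at 0.47 (0.38 to 0.579), fell just short of the limit with its pseudocount, and peg stood at 0.656 (0.633 to 0.678). Of the 6 higher genes, obst-E had a ratio of 8.97 (5.68 to 14.9), GstE6 one of 5.41 (3.68 to 8.31), Snap25 one of 3.4 (2.17 to 5.37) and CG42362 one of 3.3 (2.2 to 5). CG42362 shares all its exon bases with an annotated gene that is not used here, CG42363. The other 2 were the heat shock element and CG15784, which stood at 14.4, 42.1, 56.5 and 96 FPKM. In this library yki was at 2563 FPKM, 0.509 times its level in Yki, and tai at 22.9 FPKM, 0.916 times. Whether the lower yki signal plays a part in the members' values was not tested.

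**Figure D3:**
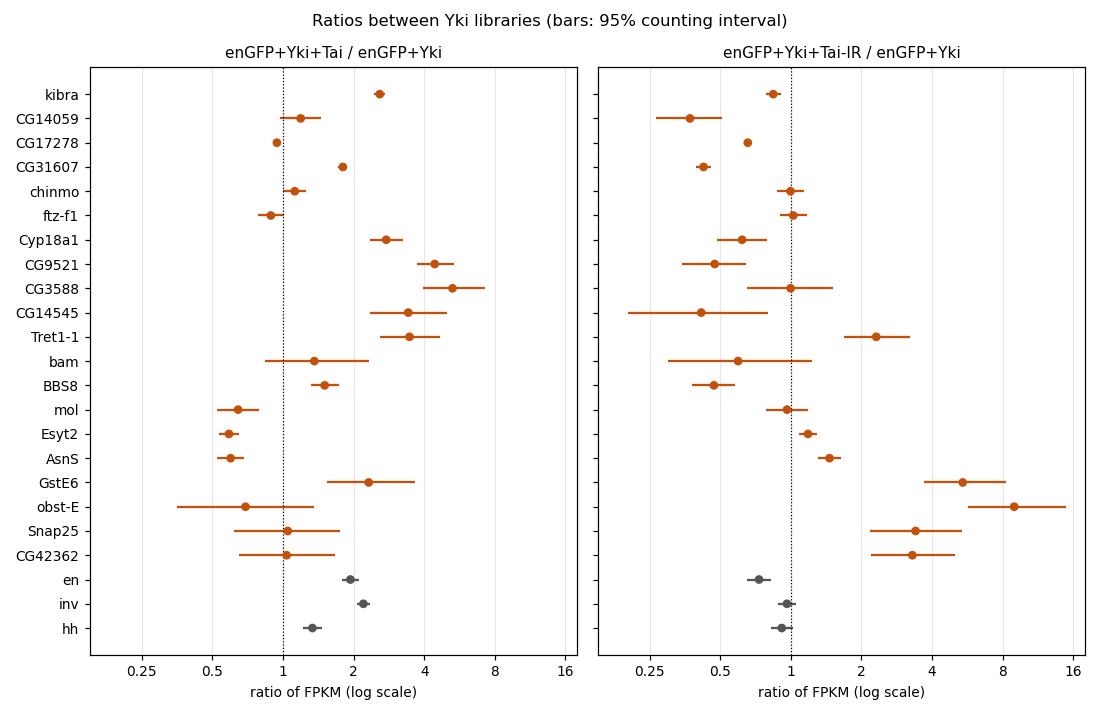
Ratio of FPKM to the Yki library (log axis) for 20 members and the posterior genes en, inv and hh (grey), in Yki+Tai (left) and Yki+Tai-IR (right), with bars for the exact 95% counting interval. The points of kibra, Cyp18a1, CG9521, CG3588, CG14545, Tret1-1 and GstE6 lie above those of the posterior genes on the left. The bar of GstE6 there spans the ratio of inv. On the right obst-E, GstE6, Snap25, CG42362 and Tret1-1 lie above 2.

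The last comparison sets Yki+Tai over Yki+Tai-IR. Of the members 13 (18.3%) were 2-fold higher in Yki+Tai, against 3.55% of all genes, and 5 (7.04%) were lower, against 4.36%. The median was 0.16 over the members and -0.02 over all genes. Among genes averaging 1 to 5 FPKM, 3 of 19 members (15.8%) were higher, against 11.3% of all genes of that level, and 2 (10.5%) lower, against 14.9%. From 5 to 20 FPKM 8 of 33 (24.2%) were higher, against 4.04%, and at 20 FPKM or more 2 of 19 (10.5%), against 1.72%. The posterior genes were higher in Yki+Tai here as well, at ratios of 2.65 (en), 2.28 (inv) and 1.46 (hh). Of the members 13 had a ratio above that of en, 9 lay between hh and en, and 49 below hh. Of the muscle markers 7 of 9 were 2-fold lower in Yki+Tai, of the leg disc markers 8 of 10, and of the blood cell markers 5 of 8 were higher. The part of these shifts in the members' ratios was not tested. The ratio was 3.07 (2.89 to 3.27) for kibra, 3.2 (2.37 to 4.38) for Ilp8, 3.2 (2.64 to 3.9) for BBS8, 4.24 (3.97 to 4.52) for CG31607, 4.44 (3.62 to 5.52) for Cyp18a1 and 9.36 (7.19 to 12.5) for CG9521. For bam it was 2.28 (1.21 to 4.39), between those of hh and en. The 5 lower genes were obst-E, CG42362, AsnS, Snap25 and GstE6, and AsnS had a ratio of 0.409 (0.361 to 0.463). These 3 comparisons share libraries, so they are not independent of each other.

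**Figure D4:**
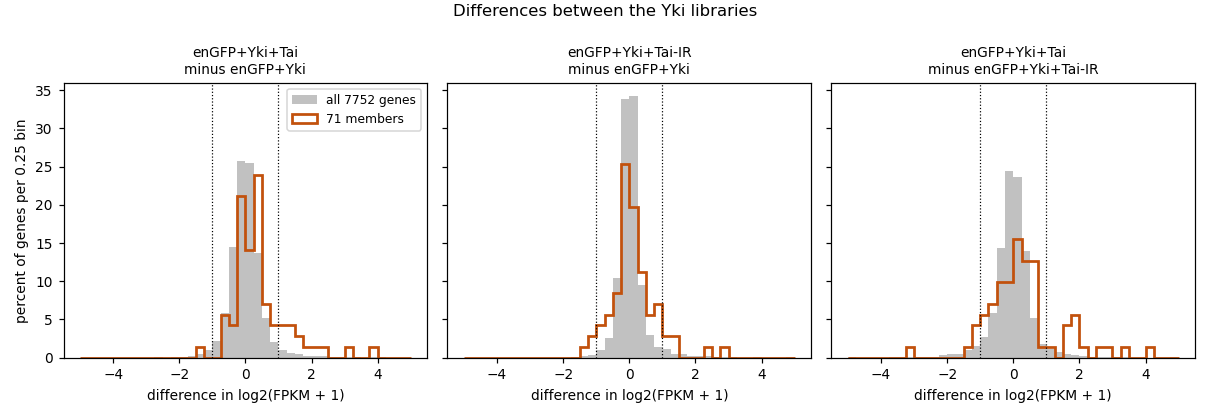
Differences in log2(FPKM + 1) between pairs of Yki libraries, as the percentage of genes per bin, for all 7752 genes (grey) and the 71 members (orange outline), with dotted lines at the 2-fold limits. In the left and right panels 18.3% of members lie at or beyond the upper limit, and in the middle panel 8.45%.

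The 71 genes thus split by how alike the 3 Yki libraries were. In 28 members (39.4%) the 3 values lay within 0.5 on the log2(FPKM + 1) scale, against 67.8% of all genes, and in 22 (31%) they spread over 1 or more, against 10.4%. Neither these shares nor those that follow are matched for level. The members are lower in level than most genes, and low genes differed 2-fold more often. The even members include chinmo, ftz-f1, CG17104, mthl8, CG11750, TepII, yellow-b, nahoda and Tsp42Ef. CG17104 stood at 5.58, 34.3, 29.7 and 34.3 FPKM. The gene nahoda stood at 25.7, 56.6, 65.3 and 54.1 FPKM. In 10 members Yki+Tai was at least 2-fold over both other Yki libraries, 14.1% against 1.94% of all genes. These were kibra, Cyp18a1, Lcp65Ad, CG8795, CG9521, CG3588, CG4267, CG14545, CG15213 and the heat shock element. In 4 members Yki+Tai-IR was 2-fold over both, 5.63% against 1.94%, namely obst-E, GstE6, Snap25 and CG42362. In 2, CG14059 and CG31607, Yki+Tai-IR was 2-fold under both, 2.82% against 0.387%. Yki+Tai was the highest Yki library for 37 members, 52.1% against 38.3% of all genes. The members had to pass the limit over GFP in each Yki library and all genes did not, so these shares are not like for like. CG15213, CG4267 and CG8795 also reached the filter on the mean only through their Yki+Tai values.

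Counting intervals give the precision that depth allows for these ratios. The exact 95% interval of the ratio of Yki+Tai to Yki lay above 1 for 34 of 70 members (48.6%) and below 1 for 8, against 30% and 29.8% of 7564 genes. For Yki+Tai-IR to Yki it lay above 1 for 18 members (25.7%) and below for 13 (18.6%), near the 21.8% and 20.9% of all genes, and it held 1 for 39. The intervals cover counting error and leave out differences between disc pools, which 1 library per genotype cannot show.

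Some members stood on lists of known pathways. Over all 7752 genes 0.929% met the rule, so that less than 1 gene corresponds to that share in each list. Of 18 Yki targets averaging 1 FPKM or more, 2 are members, kibra and CG14059, and ex was short of the limit in Yki+Tai-IR, at 104, 222, 349 and 143 FPKM. The death inhibitor gene th (Diap1) stood at 233, 277, 389 and 251 FPKM, above GFP throughout but under the limit in all 3. Of 42 Hippo pathway genes, kibra was the only member. Of 31 JNK and wound genes 2 are members, mol and CG14059, and of 25 ecdysone genes 2, ftz-f1 and Cyp18a1. Of 11 JAK-STAT genes 1 is a member, chinmo, and of 10 germline genes 1, bam. Other genes of the ecdysone list and of the JNK and wound list went the other way. Of the 25 ecdysone genes 7 (Yki), 5 (Yki+Tai) and 7 (Yki+Tai-IR) lay 0.8 or more below GFP, and 2, 5 and 3 above it. Of the 31 JNK and wound genes 3, 1 and 2 lay below by that limit, and 3, 6 and 6 above. None of 22 piRNA and 34 DNA replication genes is a member. Of the 18 targets 3 passed the limit of 0.8 over GFP with Yki, 5 with Yki+Tai and 3 with Yki+Tai-IR, where 3.12%, 5.3% and 4.57% of all genes did. Another target, the Notch ligand gene Ser, differed from GFP by -1.05 in Yki+Tai.

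By position, the 70 matched members were spread over the genome much as all genes were. On the X chromosome lay 13 (18.6%, against 17.2% of all genes), on 3R 17 (24.3% against 24.3%), on 3L 12, and on 2L and 2R 14 each. Their median transcript length was 1842 nt, against 1939 nt. Only 4 pairs of members lay within 50 kb of each other. Besides the P450, cuticle and mod(mdg4) pairs these were CG17104 and CG7294, 9.03 kb apart on 2L. Between them CG7296 stood at 1.93, 3.25, 4.14 and 11.2 FPKM, also above GFP in each Yki library but under the limit. CG7294 itself stood at 3.83, 11.3, 22.5 and 15.2 FPKM.

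The estimated depth ran from 8.08 M fragments (GFP) to 12.6 M (Yki+Tai), with 9.59 M for Yki and 8.34 M for Yki+Tai-IR. Of the 9 wing markers each stood at 10.4 FPKM or more in every library, and their sums were 484, 554, 445 and 451 FPKM. The wing gene bi lay lower in the Yki libraries, at 31.3, 19.6, 17.2 and 18.4 FPKM. Makeup still differed between GFP and the others. The summed level of 10 leg disc markers was 321, 61.5, 108 and 244 FPKM, with fd96Ca, fd96Cb and Scr at 0 in Yki. Myoblast markers lay lower in the Yki libraries, where 5 of 11 (Yki), 5 (Yki+Tai) and 2 (Yki+Tai-IR) differed from GFP by more than the limit. Among them twi stood at 22, 6.73, 3.81 and 11.7 FPKM and stumps at 21.7, 9.51, 5.78 and 13.5. The summed level of 13 muscle markers was 62, 28.1, 26.4 and 77.4 FPKM. That of 9 salivary gland markers, 3 of which averaged 1 FPKM or more, was 0.786, 10.6, 0.653 and 13.0 FPKM. The male-specific RNAs roX1 and roX2 were both above GFP in every Yki library, roX1 at 136, 324, 222 and 202 FPKM and roX2 at 103, 270, 165 and 144. No leg, hemocyte, muscle, myoblast, fat body, trachea, neuron, glia, salivary gland or sex marker on these lists is a member. At the share of all genes that met the rule, 0.929%, less than 1 member corresponds to these lists, so the absence says little. The members atilla, a lamellocyte marker, and sage, known from the salivary gland, are not on the lists. The part of these shifts in the members' values was not tested.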

How the data were processed

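Per the labels' protocols, rRNA-depleted RNA (4 µg of total RNA) went into unstranded TruSeq version 2 libraries and onto an Illumina HiScan. The authors deposited 1 table of FPKM per gene, made with CASAVA 1.4, TopHat2 2.0.12 and Cuffdiff 2.2.1 on dm6, per the submitters' processing notes. Their annotation is not given in the sources used here. A listed 0 need not mean no transcript: 97 genes had both a 0 and a value of at least 10 FPKM.

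Gene symbols were looked up in Ensembl release 115, in dm6 coordinates (13568 of 13990, of which 3039 through another symbol). Depth was the value at which low FPKM values of single-transcript genes became whole fragments, with 210 nt taken off the length. There 74.2% to 76.4% were whole to within 0.08, where chance gives 16%. Estimated fragments, using the mean transcript length, gave exact Clopper-Pearson intervals at 95%, which cover counting error only. Below 3 fragments nothing is resolved.

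The members and gene lists were chosen with earlier results of these data known, and roles were assigned with values seen. Genes named by rule were those largest in difference or level, the extremes of each comparison, members on lists, and those nearest the limit. Others were named after their values were seen. Promoter motifs were not analysed here. Counting steps were checked on simulated data. Alternatives changed the pseudocount, filter, limit, scaling and libraries required. Python 3.11.15, numpy 2.4.6, pandas 2.3.3, scipy 1.17.1 and matplotlib 3.10.9 were used.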

Additional observations from a re-analysis of the deposited data

How the results depend on the processing

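The number of genes meeting the rule was 71, and 123 with a pseudocount of 0.1, 30 with one of 5, and 44 with a limit of 1. It was 124 when Yki, 133 when Yki+Tai and 115 when Yki+Tai-IR was not required. For Yki+Tai against Yki, 8 members in place of 13 were 2-fold higher and 0 in place of 1 lower with a pseudocount of 5, and 6 and 9 after rescaling to equal posterior genes. Leaving out members that share 100 or more exon bases with another gene, an alternative chosen after seeing the data, left 0 lower. For Yki+Tai-IR against Yki, 3 in place of 6 were higher with a pseudocount of 5 and 11 after posterior rescaling, and 6 in place of 3 were lower with one of 0.1. For Yki+Tai against Yki+Tai-IR, 8 in place of 13 were higher and 24 in place of 5 lower after posterior rescaling, with 2 lower at a pseudocount of 5 and 3 at a mean of 5 FPKM or more. Posterior rescaling moved the median of all genes by its construction, to -0.78, 0.21 and -0.999 in the 3 comparisons, where the members' medians were -0.44, 0.20 and -0.74. The other alternatives run stayed within 1.5 times the reported counts. No paired analysis was possible because each genotype has 1 library. Members under 3 fragments in GFP are limited by depth.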
